A study of Mus musculus with 4 samples.

Results

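The 9 genes described here encode the machinery through which cells read oxygen: the hypoxia-inducible factor (HIF) alpha subunits Hif1a (HIF-1α), Epas1 (HIF-2α) and Hif3a (HIF-3α), their shared partner Arnt (HIF-1β), the prolyl hydroxylases Egln1 (PHD2), Egln2 (PHD1) and Egln3 (PHD3), the asparaginyl hydroxylase Hif1an (FIH) and Vhl, the substrate receptor of a ubiquitin ligase. They were taken by symbol from the gene annotation of the count matrices, and all 9 were found among 31253 genes, with 701934 of the 296786427 UMIs (unique molecular identifiers, each standing for a captured transcript molecule) in the cells kept. The cells came from lungs of C57BL/6J mice, 6 to 8 weeks old, that were all kept in hypoxia for 6 weeks, so no normoxic lung was compared. Vegfr2Y949F mice carry phenylalanine in place of a tyrosine that is a phosphorylation site of VEGFR2, the main VEGF receptor of endothelial cells; WT mice carry the unaltered receptor. Zygosity and sex are not given in the sources used here. Droplet-based (10x Genomics) single-cell libraries were made from 4 suspensions, 2 of Vegfr2Y949F and 2 of WT lungs, each a pool of 2 mice, with set letters A and B in each genotype. Counting transcripts per gene cannot read a single substitution in a receptor, so the genotype labels were not checked from these counts.

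In well-oxygenated cells the prolyl hydroxylases modify the HIF alpha subunits, VHL then binds them and they are degraded, while FIH blocks their contact with coactivators. When oxygen falls, the alpha subunits persist, pair with ARNT and drive genes of glycolysis, angiogenesis and erythropoiesis; Egln1 and Egln3 are themselves well-known HIF targets. HIF-2α is known for its high level in lung endothelium, where it and PHD2 are tied to hypoxic pulmonary hypertension, and HIF-1α is known as a regulator of neutrophil and macrophage metabolism. Regulation of the alpha subunits by oxygen acts mostly on protein stability, which transcript counts do not measure.

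The libraries held between 9304 and 11446 kept cells with a median of 4312 to 5549 UMIs per cell. Libraries shared between 43 and 70 cell barcodes in any pair. Cells were clustered without the 9 genes, their pathway genes, Kdr and sex-linked genes, and 26 cell types were assigned from marker genes, leaving 2925 cells unnamed. General capillary cells were the most numerous (16698 cells), followed by aerocytes (3565), alveolar fibroblasts (3438), neutrophils (3412, of which 1897 came from Vegfr2Y949F A) and venous endothelial cells (2212). Levels are given as CPM, the UMIs of a gene per 1000000 UMIs of all cells of that type in a library. Types with at least 20 cells in 2 or more libraries are described, which left 23.

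The promoters of Hif1a, Egln1 and Egln3 are shown for a broadly used alpha subunit and for both hydroxylases that are known HIF targets. The HIF core motif was searched as ACGTG or GCGTG on either strand of the 250 bases before the starts of 8 of the 9 genes in RefSeq (GRCm38.p6), all but Epas1. Capitals mark matches, read 5′ to 3′ along the gene's strand.
Hif1a, chr12:73907617-73907866, plus strand: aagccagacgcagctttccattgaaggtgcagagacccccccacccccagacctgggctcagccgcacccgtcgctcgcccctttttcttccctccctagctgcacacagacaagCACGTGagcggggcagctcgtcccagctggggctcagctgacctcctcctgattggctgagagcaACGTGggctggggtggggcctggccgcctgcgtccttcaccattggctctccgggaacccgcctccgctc
Egln1, chr8:124949255-124949504, minus strand: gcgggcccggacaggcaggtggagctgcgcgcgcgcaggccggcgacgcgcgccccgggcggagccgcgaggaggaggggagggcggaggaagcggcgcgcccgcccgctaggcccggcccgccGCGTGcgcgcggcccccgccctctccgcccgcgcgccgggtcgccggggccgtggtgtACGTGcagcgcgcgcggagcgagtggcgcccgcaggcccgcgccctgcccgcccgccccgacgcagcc
Egln3, chr12:54203875-54204124, minus strand: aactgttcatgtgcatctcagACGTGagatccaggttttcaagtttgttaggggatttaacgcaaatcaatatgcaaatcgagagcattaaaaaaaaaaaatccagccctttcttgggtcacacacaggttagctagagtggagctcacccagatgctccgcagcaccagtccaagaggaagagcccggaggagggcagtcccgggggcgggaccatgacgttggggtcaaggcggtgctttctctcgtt

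The Hif1a window held 3 matches, of which 2 overlap on opposite strands in a palindrome, the Egln1 window held 2 and the Egln3 window held 1. Of the other windows, Egln2 had 4 matches in its main window and 1 in a second, Hif3a had 2 and Arnt had 1. The Hif1an and Vhl windows had no such letters. Of 32851 windows of the same length in the RefSeq table, 38.6% held either motif (16.6% ACGTG, 28.2% GCGTG), so a match in a single window is common. GC content of the windows ranged widely, with 86% in Egln1 and 50.8% in Egln3. A match describes letters and not a bound site.

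**Figure D1:**
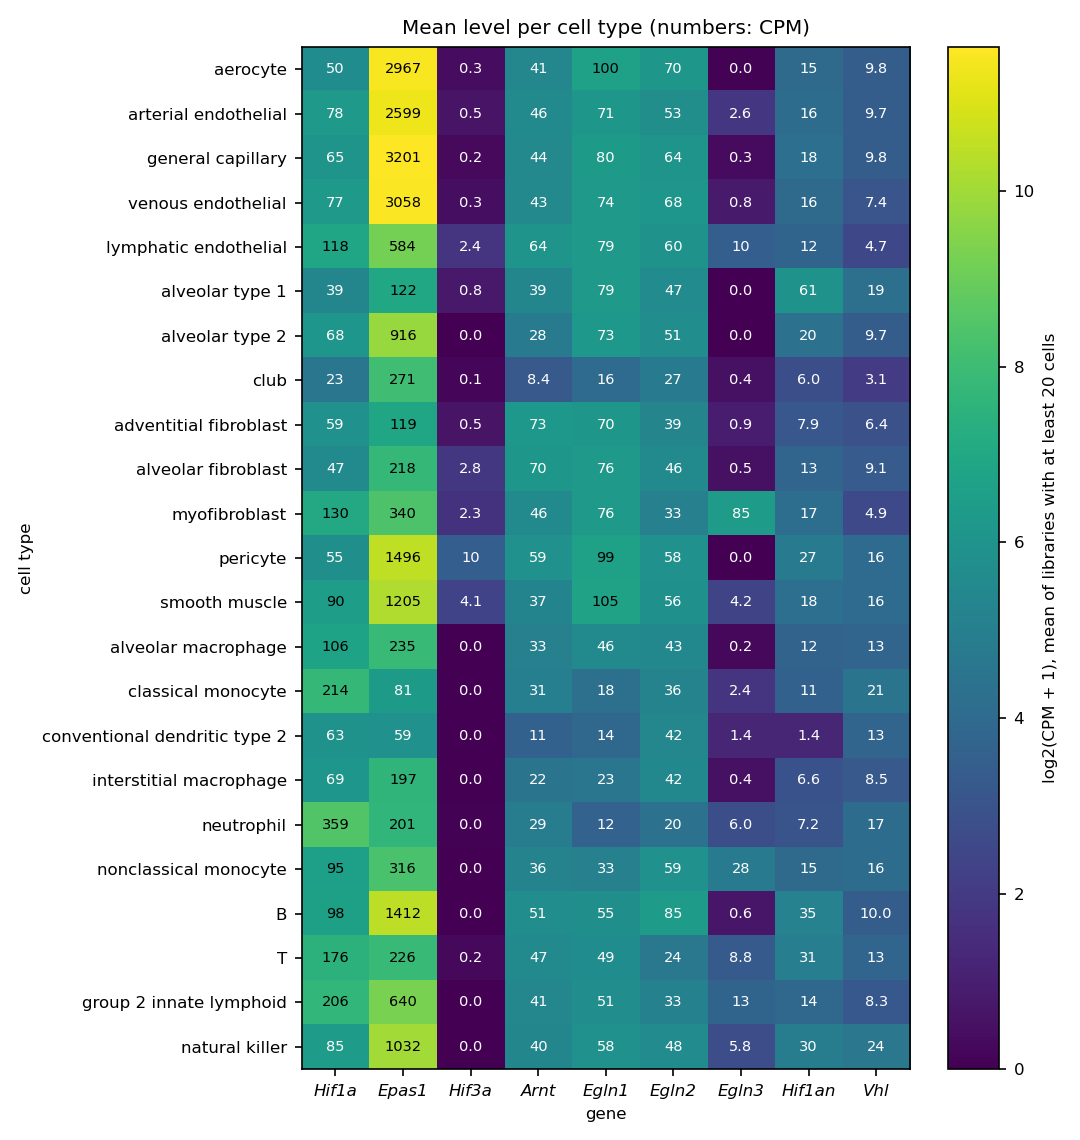
Mean level of the 9 genes in 23 cell types. Rows are cell types, columns are genes, the numbers are mean CPM over libraries with at least 20 cells of the type, and colour shows log2(CPM + 1); Epas1 averages 2599 to 3201 CPM in the 4 blood endothelial types, Hif1a peaks at 359 CPM in neutrophils, and Egln3 and Hif3a are near 0 in most rows.

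Epas1 was the dominant transcript of the group in blood vessels. In endothelial cells (general capillary, aerocyte, arterial and venous cells summed) it had 3931 and 2687 CPM in Vegfr2Y949F A and B, against 3242 and 2565 CPM in WT A and B. General capillary cells were highest (3201 ± 655 CPM, SD, n = 4 libraries), then venous (3058 ± 736), aerocyte (2967 ± 585) and arterial cells (2599 ± 467). The ranges of these types over libraries overlapped, but within libraries general capillary cells and aerocytes were above arterial cells in 4 of 4, while venous cells were above aerocytes in 3 of 4. Set A was above set B within each genotype and in all 4 of these types, and what the set letter stands for is not given in the sources used here. The same order of sets appeared in pericytes, with 1965 and 1135 CPM in Vegfr2Y949F A and B, against 1711 and 1172 CPM in WT A and B. Cells of set A were also shallower, with medians of 4312 and 4339 UMIs per cell against 5549 and 5472 in set B, and the part of depth in the difference was not tested.

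Pericytes and smooth muscle cells had 1496 ± 409 and 1205 ± 410 CPM. The smooth muscle cells joined 3 clusters, with Epas1 at 1610 CPM (142 cells), 564 CPM (72 cells) and 2722 CPM (25 cells), libraries pooled. They were not divided into cells of vessels and of airways. B cells lay between them (1412 ± 990 CPM, n = 3 libraries), at levels set beside endothelial markers further on. After each cell was thinned to 2000 UMIs, Epas1 was detected in 99.1% of general capillary cells (95% Wilson interval 98.9% to 99.2%; 99.7% unthinned, median 4536 UMIs), in 93.6% of pericytes (98.3% unthinned, median 4598) and in 84.6% of smooth muscle cells (95.8% unthinned, median 5970). In T cells it was detected in 15.1% of cells (29.7% unthinned, median 5571 UMIs), and in more of the neutrophils (20.7%; 26.8% unthinned, median 2908), natural killer cells (26.9%; 25.8% unthinned, median 3240.5) and B cells (29.2%; 27.8% unthinned, median 3069). These intervals cover counting error only. Thinning left out 1151 general capillary cells, 74 pericytes, 25 smooth muscle cells and 82 T cells. It kept 216 of 327 B cells, 78 of 120 natural killer cells and 3031 of 3412 neutrophils. The thinned shares of these types describe their deeper cells only. Lymphatic endothelial cells were far lower and uneven, with 927 and 326 CPM in Vegfr2Y949F A and B, against 937 and 143 CPM in WT A and B. The higher values of set A rested on few lymphatic cells, 27 in Vegfr2Y949F A and 22 in WT A, against 105 and 161 in Vegfr2Y949F B and WT B. Across lineages, Epas1 in endothelium was 3.23 ± 0.21 higher (log2, SE) than the mean of the other 4 lineages (edgeR quasi-likelihood test with library as a block, adjusted p = 1.38e-10).

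Epas1 was also counted in leukocytes, at levels that lay among those of endothelial markers. For each type the level of Epas1 was set as a percentage of its endothelial level in the same library, beside the same percentage for 6 endothelial markers. In B cells Epas1 stood at 43.1% and the marker median at 45.1%, in natural killer cells at 32.3% and 34.0%, and in neutrophils at 6.35% and 6.40%. In 11 of 19 non-endothelial or lymphatic types, Epas1 lay within the range of the 6 markers. In 4 types it lay above all 6 markers in every library: pericytes (47.7% against a marker median of 3.50%), smooth muscle cells (38.1% against 4.42%), club cells (8.49% against 2.35%) and alveolar fibroblasts (7.03% against 3.90%).

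Splitting the cells of each type by whether they held any UMI of those markers separated these groups further. In natural killer cells, Epas1 was 32.6 CPM in 65 cells without a marker UMI and 1775 CPM in 55 cells with a marker UMI, libraries pooled. Only WT B held at least 20 natural killer cells without a marker UMI (42.4 CPM). Only Vegfr2Y949F A held at least 20 with one (1974 CPM), so no library gives both sides. B cells gave 55.0 CPM in 156 cells without and 1865 CPM in 171 cells with a marker UMI. Both sides held at least 20 B cells only in Vegfr2Y949F B (36.4 and 1638 CPM) and WT B (35.1 and 991 CPM). Pericytes without a marker UMI still had 1440 CPM (484 cells), close to the 1601 CPM of those with a marker UMI. Smooth muscle cells had 1050 CPM without and 1430 CPM with a marker UMI. Club cells had 219 CPM in 30 cells without and 304 CPM with a marker UMI, and no library held 20 of those without. Alveolar fibroblasts had 124 CPM in 2053 cells without and 306 CPM with a marker UMI. Alveolar type 2 cells, the surfactant-secreting cells of the alveolus, had 204 CPM in 61 cells without and 980 CPM with a marker UMI. Only WT B held at least 20 alveolar type 2 cells without a marker UMI. Alveolar type 1 cells had 29.2 CPM in 642 cells without and 226 CPM with a marker UMI. Endothelial markers moved with the Epas1 levels of lymphocytes, granulocytes and monocytes, and their part in those levels was not tested.

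**Figure D2:**
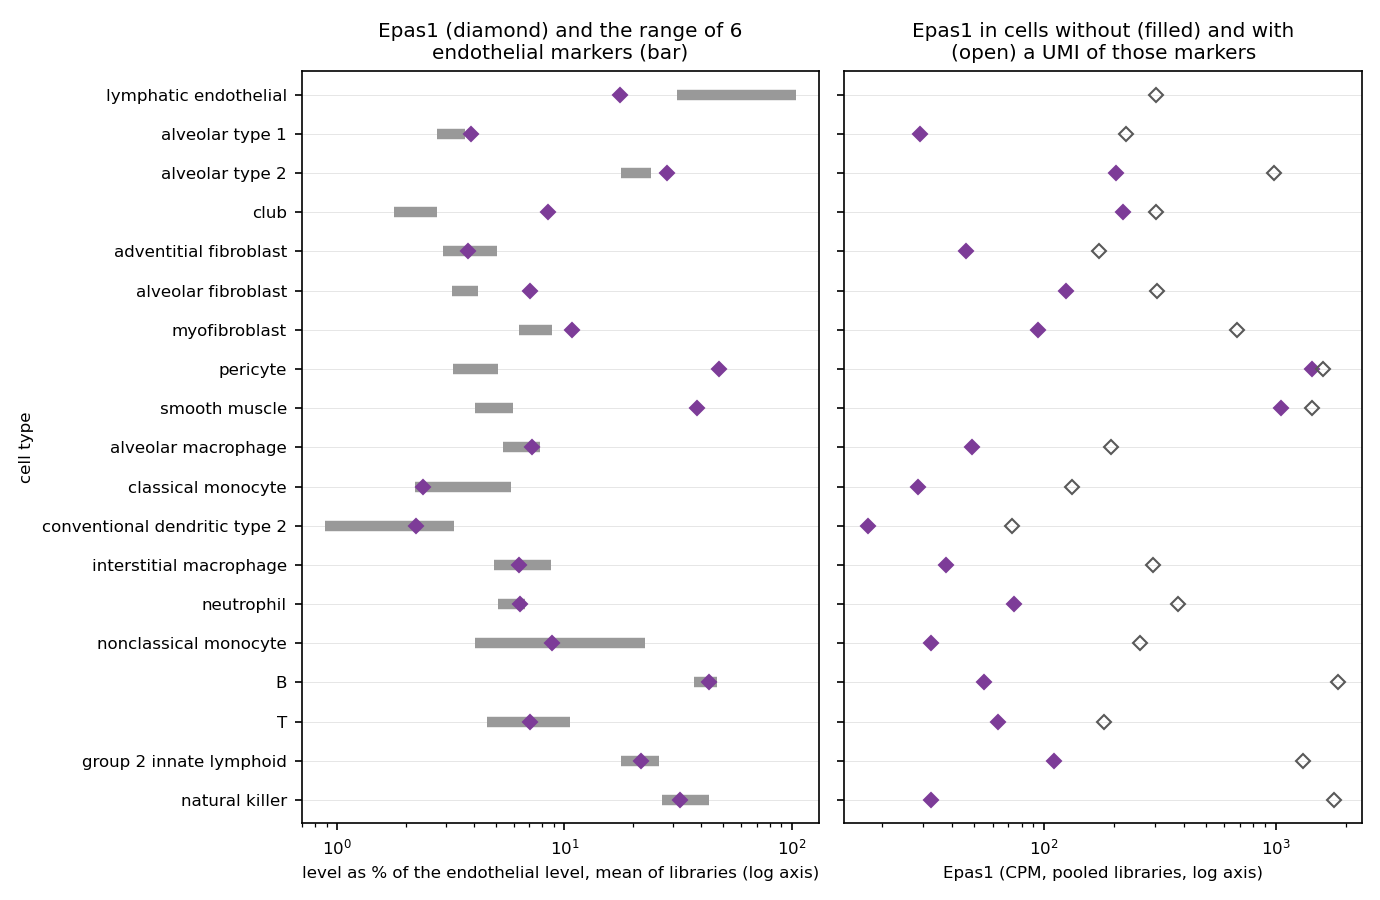
Epas1 beside endothelial markers in non-endothelial and lymphatic types. Left, the level as a percentage of the endothelial level (log axis), with Epas1 as a diamond and the span of the 6 markers as a bar; right, Epas1 in CPM (log axis, libraries pooled) in cells without (filled, at least 20 cells) and with (open) a marker UMI. Pericytes and smooth muscle cells lie far right of the bars, and natural killer and B cells lie on them.

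Hif1a was highest in neutrophils, cells in which Epas1 was low. Neutrophils had 377 and 391 CPM in Vegfr2Y949F A and B, against 278 and 390 CPM in WT A and B, the highest mean of any type (359 ± 54.6 CPM). Classical monocytes followed at 214 ± 104 CPM (n = 3 libraries), group 2 innate lymphoid cells at 206 ± 38.1 CPM (n = 3) and T cells at 176 ± 25.8 CPM, and these 3 did not differ beyond their spread. Myofibroblasts (129.8 ± 20.3 CPM) and lymphatic endothelial cells (118 ± 27.1 CPM) came next. Blood endothelium had 63.3 ± 6.59 CPM, alveolar type 1 cells 39.2 ± 3.26 CPM and club cells 22.6 ± 4.68 CPM, the lowest of the 23 types.

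At 2000 UMIs per cell Hif1a was detected in 46.9% of neutrophils (interval 45.2% to 48.7%; 58.7% unthinned, median 2908 UMIs), in 28.7% of T cells (51.0% unthinned) and in 11.8% of general capillary cells (28.2% unthinned). Club cells gave 6.02% (60.2% unthinned, median 52967 UMIs). Neutrophil markers outside neutrophils were far below Hif1a: in T cells the median of the markers was 0.0717% of the neutrophil level while Hif1a was 49.5%, and Hif1a exceeded every neutrophil marker in all libraries in 21 of 22 types. The exception was the interstitial macrophages, where it did so in 2 of 4 libraries. In the lineage test Hif1a was 2.35 ± 0.15 higher (log2, SE) in myeloid cells than in the mean of the other lineages (adjusted p = 9.66e-11, edgeR) and 0.96 ± 0.16 higher in lymphoid cells (adjusted p = 6.09e-05, edgeR). It was lower in endothelial (-0.82), mesenchymal (-1.02) and epithelial cells (-1.48), all called. The myeloid lineage was uneven: most of its cells were neutrophils, while interstitial macrophages (69.1 CPM) and conventional dendritic cells of type 2 (62.7 CPM, n = 2) lay near blood endothelium.

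**Figure D3:**
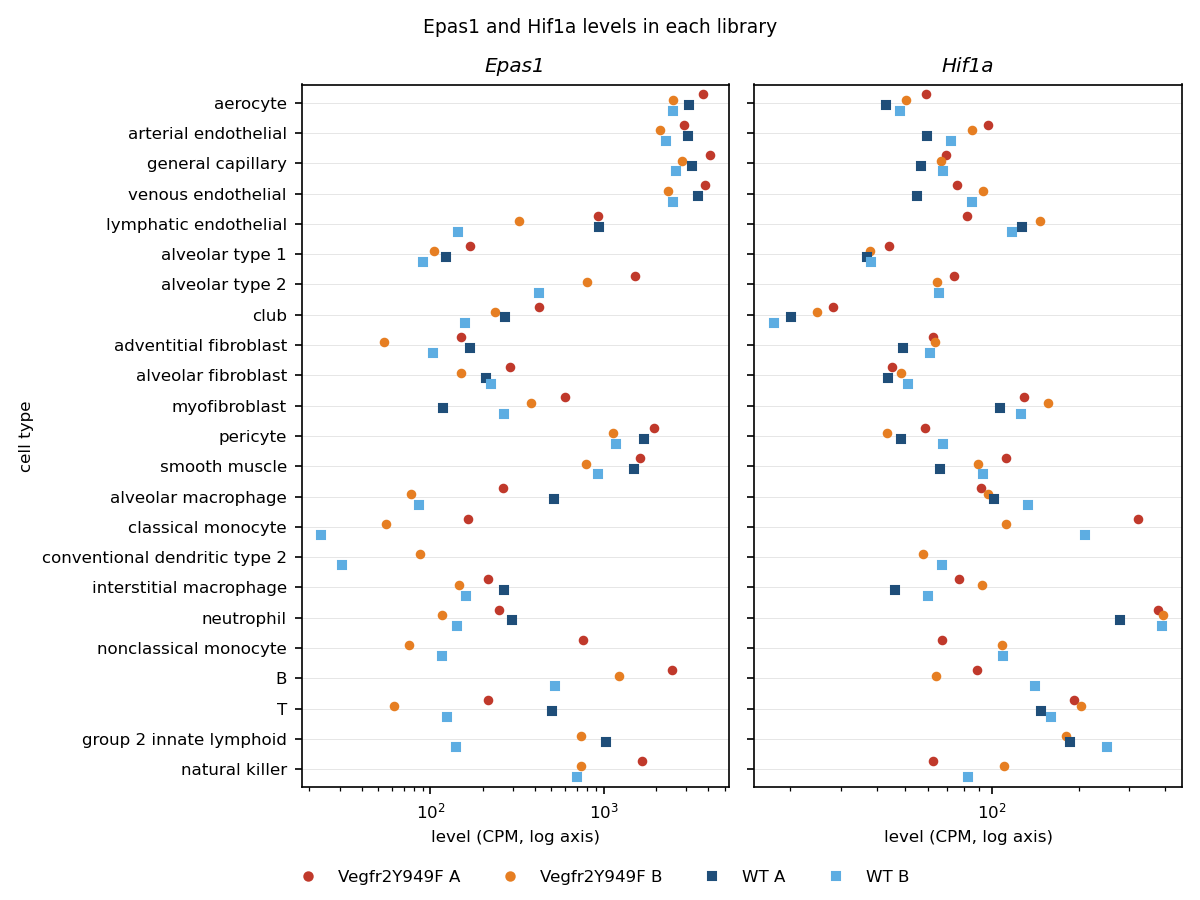
Epas1 (left) and Hif1a (right) in each library by cell type, in CPM on log axes; circles are Vegfr2Y949F libraries, squares are WT libraries, and a library is shown where it held at least 20 cells of the type. Epas1 is highest in the 4 blood endothelial rows and Hif1a in neutrophils, in every library.

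The balance of the alpha subunits was taken as the ratio of their UMIs within a library, and only its change between cell types was read, since capture can differ between transcripts. Endothelium held 57.7 and 40.5 Epas1 UMIs per Hif1a UMI in Vegfr2Y949F A and B, against 60.5 and 39.4 in WT A and B. Myeloid cells held 0.773 and 0.541 in Vegfr2Y949F A and B, against 1.33 and 0.509 in WT A and B. On the log2 scale the Hif1a to Epas1 ratio was higher than in endothelium by 6.06 in myeloid, 4.07 in lymphoid, 3.16 in mesenchymal and 2.86 in epithelial cells, with SDs of 0.37, 0.94, 0.32 and 0.42 over libraries. The direction was the same in 4 of 4 libraries for each lineage, and an exact two-sided sign-flip permutation over libraries gave p = 0.125 for each (adjusted 0.125 over the 4 comparisons), the smallest that 4 libraries allow. Within the mesenchyme, pericytes (17.3 to 35.4 Epas1 UMIs per Hif1a UMI) stood near arterial cells (24.8 to 51.8), and adventitial fibroblasts (0.847 to 3.42) near T cells (0.304 to 3.39). Among thinned aerocytes, 89.7% held Epas1 without Hif1a and 0.1% the reverse, while among neutrophils 11.0% held Epas1 alone and 37.3% Hif1a alone. In cells without an endothelial marker UMI, an added setting, myeloid cells held 0.133 to 0.270 Epas1 UMIs per Hif1a UMI.

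Arnt, the partner of every alpha subunit, was counted in every type described. It was highest in adventitial (72.6 ± 7.55 CPM) and alveolar fibroblasts (69.9 ± 9.51 CPM), at 43.3 ± 6.53 CPM in blood endothelium and at 8.43 ± 2.78 CPM in club cells. Mesenchymal cells were 0.74 ± 0.10 above the mean of the other lineages on the log2 scale (adjusted p = 2.57e-06, edgeR), and epithelial cells 0.76 ± 0.12 below it (log2 -0.76, adjusted p = 1.53e-05, edgeR).

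Hif3a, whose product can limit the other alpha subunits, was close to the detection limit, with 205 UMIs in all kept cells. Pericytes had the highest level, with 16.9 and 6.20 CPM in Vegfr2Y949F A and B, against 9.87 and 8.23 CPM in WT A and B, from 38 UMIs. Smooth muscle cells (4.12 ± 3.58 CPM, 7 UMIs) and alveolar fibroblasts (2.76 ± 0.82 CPM, 67 UMIs) came next and overlapped. The 9.76 CPM of lymphatic cells in WT A rested on 1 UMI. No Hif3a UMI was counted in classical monocytes, B cells or alveolar macrophages, which allows up to 0.860, 1.80 and 0.624 CPM over the pooled libraries. Mesenchymal cells were 3.94 ± 0.34 above the other lineages (log2, SE; adjusted p = 6.98e-09, edgeR).

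Among the prolyl hydroxylases, Egln1, the main oxygen sensor of most cells, was high in smooth muscle and capillary-associated cells and low in neutrophils. Smooth muscle cells (104.7 ± 28.6 CPM), aerocytes (99.7 ± 7.63 CPM) and pericytes (99.1 ± 14.4 CPM) led and did not differ beyond their spread. General capillary cells had 82.5 and 73.7 CPM in Vegfr2Y949F A and B, against 87.2 and 75.3 CPM in WT A and B. Neutrophils, where Hif1a was highest, had the lowest mean of Egln1, with 10.7 and 14.97 CPM in Vegfr2Y949F A and B, against 14.4 and 6.15 CPM in WT A and B. At 2000 UMIs per cell, Egln1 was detected in 1.98% of neutrophils (3.25% unthinned) and 18.5% of aerocytes (57.9% unthinned). Lineage differences on the log2 scale were 0.61 ± 0.07 in endothelium, 0.47 ± 0.07 in mesenchyme and -1.02 ± 0.09 in myeloid cells (adjusted p = 4.05e-07, 1.42e-05 and 4.71e-09, edgeR).

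Egln2, the prolyl hydroxylase not known as a HIF target, varied less. Among the types with all 4 libraries it ran between 70.1 ± 5.33 CPM in aerocytes and 20.2 ± 2.54 CPM in neutrophils; B cells had a higher mean (85.5 ± 31.2 CPM, n = 3) whose spread covers the aerocyte value. It was 0.56 ± 0.09 higher in endothelium than in the other lineages and lower in lymphoid cells (log2 -0.52 ± 0.11; adjusted p = 1.65e-05 and 0.00046, edgeR).

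Egln3, known as strongly hypoxia-inducible, was counted in few types. Myofibroblasts had 71.9 and 63.1 CPM in Vegfr2Y949F A and B, against 124 and 83.0 CPM in WT A and B, from 103 UMIs in 252 cells. Nonclassical monocytes, the vessel-patrolling monocytes, were next (27.6 ± 18.6 CPM, n = 3, 30 UMIs), and the ranges of the libraries of these types did not overlap. Group 2 innate lymphoid (12.6 CPM, 7 UMIs), lymphatic endothelial (10.2 CPM, 14 UMIs), T (8.76 CPM, 58 UMIs) and neutrophil cells (6.04 CPM, 75 UMIs) followed. In blood endothelium Egln3 was 0.368 CPM from 60 UMIs, of which 17 were in arterial cells (2.60 CPM). No UMI was counted in pericytes or alveolar type 1 cells, which allows up to 0.815 and 0.382 CPM over the pooled libraries. At 2000 UMIs per cell it was detected in 10.4% of myofibroblasts (interval 7.04% to 15.1%; 16.7% unthinned) and in 0.058% of general capillary cells (0.156% unthinned). In the lineage test it was higher in myeloid (2.55 ± 0.32), lymphoid (2.50 ± 0.35) and mesenchymal cells (1.01 ± 0.31) and lower in endothelial (-2.73 ± 0.47) and epithelial cells (-3.33 ± 0.60), all log2 with SE and all called by edgeR. The mesenchymal call was lost without Vegfr2Y949F B (edgeR adjusted p = 0.0659).

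Hif1an had its highest level in alveolar type 1 cells, the flat cells of gas exchange, with 62.2 and 56.2 CPM in Vegfr2Y949F A and B, against 77.7 and 47.9 CPM in WT A and B. Every other type with 4 libraries stayed below the lowest of these values; T cells had 30.8 ± 5.26 CPM and pericytes 27.0 ± 7.40 CPM. Alveolar type 2 cells had 19.5 ± 2.24 CPM (n = 3) and club cells 5.96 ± 1.16 CPM, so the epithelial lineage was uneven. The lineage test gave 1.14 ± 0.12 in epithelium and 0.80 ± 0.13 in lymphoid cells (log2, SE; adjusted p = 1.25e-07 and 4.95e-05, edgeR).

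Vhl was low in every type. Natural killer cells (23.9 ± 5.22 CPM, n = 3, 12 UMIs), classical monocytes (21.2 ± 5.21 CPM, n = 3) and alveolar type 1 cells (18.7 ± 3.57 CPM) led without separating, and club cells were lowest (3.12 ± 2.00 CPM). Myeloid cells were 1.22 ± 0.12 above the other lineages (log2, SE; adjusted p = 7.31e-08, edgeR).

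**Figure D4:**
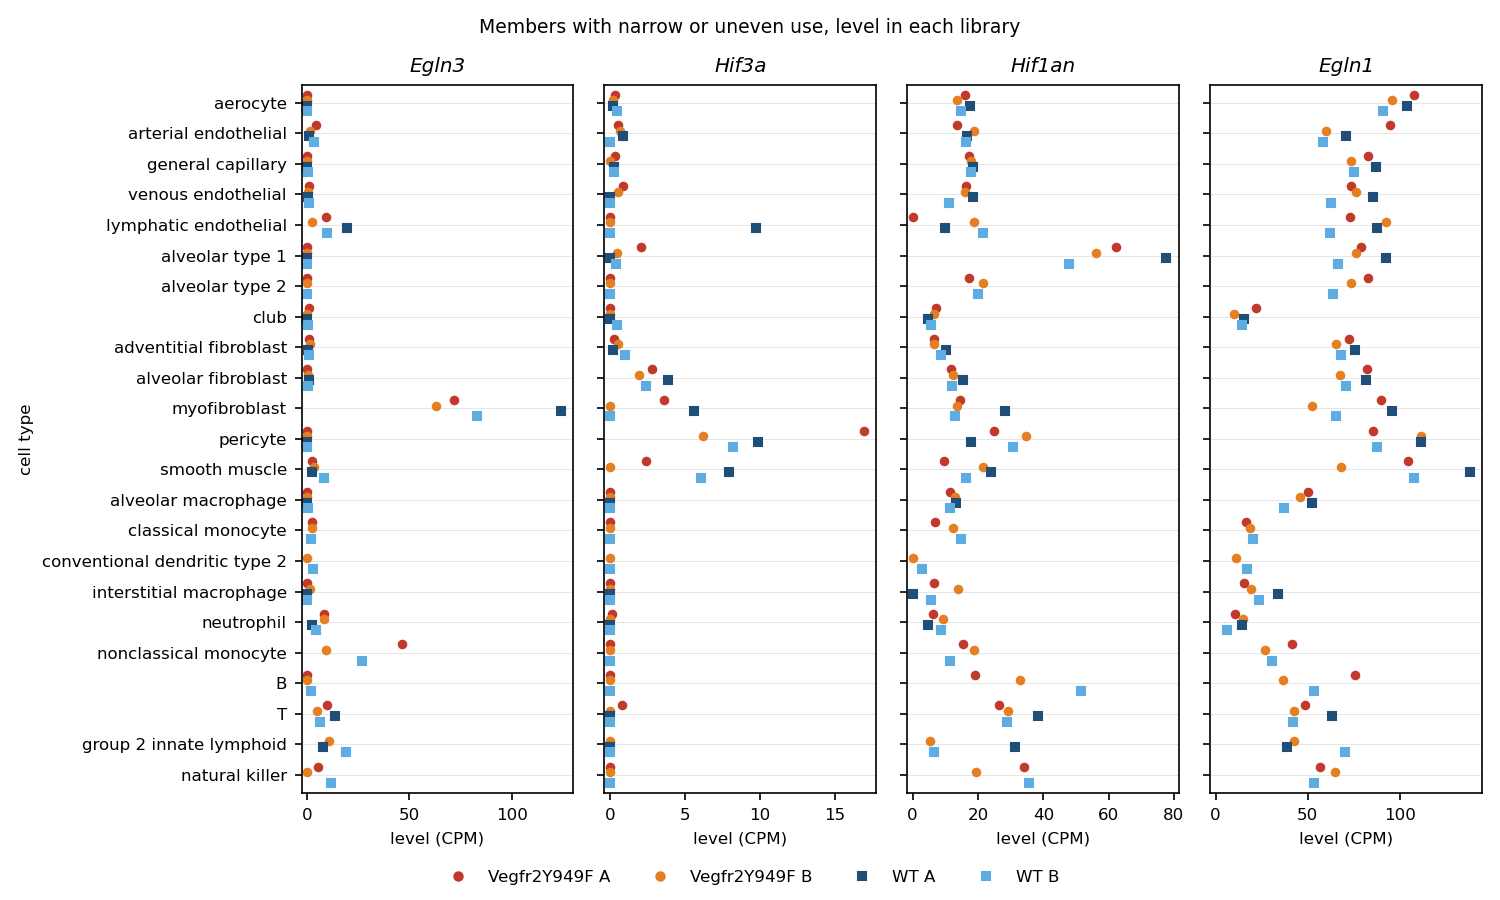
Egln3, Hif3a, Hif1an and Egln1 in each library by cell type, in CPM on linear axes that start near 0; circles are Vegfr2Y949F libraries, squares are WT libraries with at least 20 cells of the type. Egln3 stands out in myofibroblasts (63.1 to 124 CPM), Hif3a in pericytes (6.20 to 16.9 CPM), Hif1an in alveolar type 1 cells (47.9 to 77.7 CPM), and Egln1 has its lowest mean in neutrophils (11.5 CPM).

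In all, 31 of the 45 tests of a member in a lineage were called at an adjusted p under 0.05, 14 higher and 17 lower. Lineage differences were as common in the transcriptome: 67% of 14262 genes were called in endothelium, 67.8% in epithelium, 69% in mesenchyme, 68.5% in myeloid and 62.9% in lymphoid cells, so the number of calls is near the background and the sizes and directions carry the description.

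Named by their likeness over 23 types (Pearson correlation of log2(CPM + 1), a description across types that share libraries), the genes most like Epas1 were Gja4 (r = 0.96), Pcdh1 (0.96) and Id1 (0.94). Gja4, which encodes a gap junction protein, is also among the arterial markers used for naming. For Hif1a they were Btbd9 (0.83), Sik3 (0.81) and Slc25a3 (0.80), for Egln1 Ilkap (0.97), Phf2 (0.97) and Alkbh5 (0.96), and for Egln3 Ptbp2 (0.73), Fosl2 (0.72) and Srsf5 (0.70). For Arnt they were Atf2 (0.93), Usp19 (0.90) and Pkn2 (0.88), and for Egln2 Armc5 (0.88), Zkscan17 (0.86) and Cdc42bpb (0.85). For Hif1an they were Maf1 (0.90), Zer1 (0.87) and Retreg3 (0.87), and for Vhl Cyb5r4 (0.87), Tmem179b (0.87) and Stat6 (0.86). Hif3a stayed under the 20 CPM needed for ranking.

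No member was called between the genotypes in endothelial cells. Hif1a had 68.1 and 66.3 CPM in Vegfr2Y949F A and B, against 53.6 and 65.1 CPM in WT A and B; these values do not overlap, by a margin of about 1 CPM, and after TMM scaling they do. The log2 fold changes of Vegfr2Y949F over WT were 0.12 ± 0.16 for Hif1a, 0.12 ± 0.26 for Epas1, 0.16 ± 0.15 for Arnt, -0.05 ± 0.14 for Egln1, -0.10 ± 0.16 for Egln2, -0.11 ± 0.15 for Hif1an and 0.07 ± 0.24 for Vhl (SE, edgeR quasi-likelihood test, 2 libraries per genotype, adjusted p = 1.00 for each). Hif3a (42 UMIs) and Egln3 (60 UMIs) gave 0.03 ± 0.60 and -0.42 ± 0.65. The background was 0% of 13951 genes called, with 159 genes at an unadjusted p under 0.05 and none of the members among them; DESeq2 called 7 genes and no member. In all kept cells 0% of 16674 genes were called (74 at an unadjusted p under 0.05, DESeq2 5) and again no member. The SEs come from a fit that left out the set letter, so differences between sets A and B are part of them. For Epas1 the log2 fold change was 0.18 between the A libraries and 0.05 between the B libraries, beside an SE of 0.26. With the set letter as a block, 20 genes were called in endothelial cells and no member. These values do not show that the levels were equal.

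**Figure D5:**
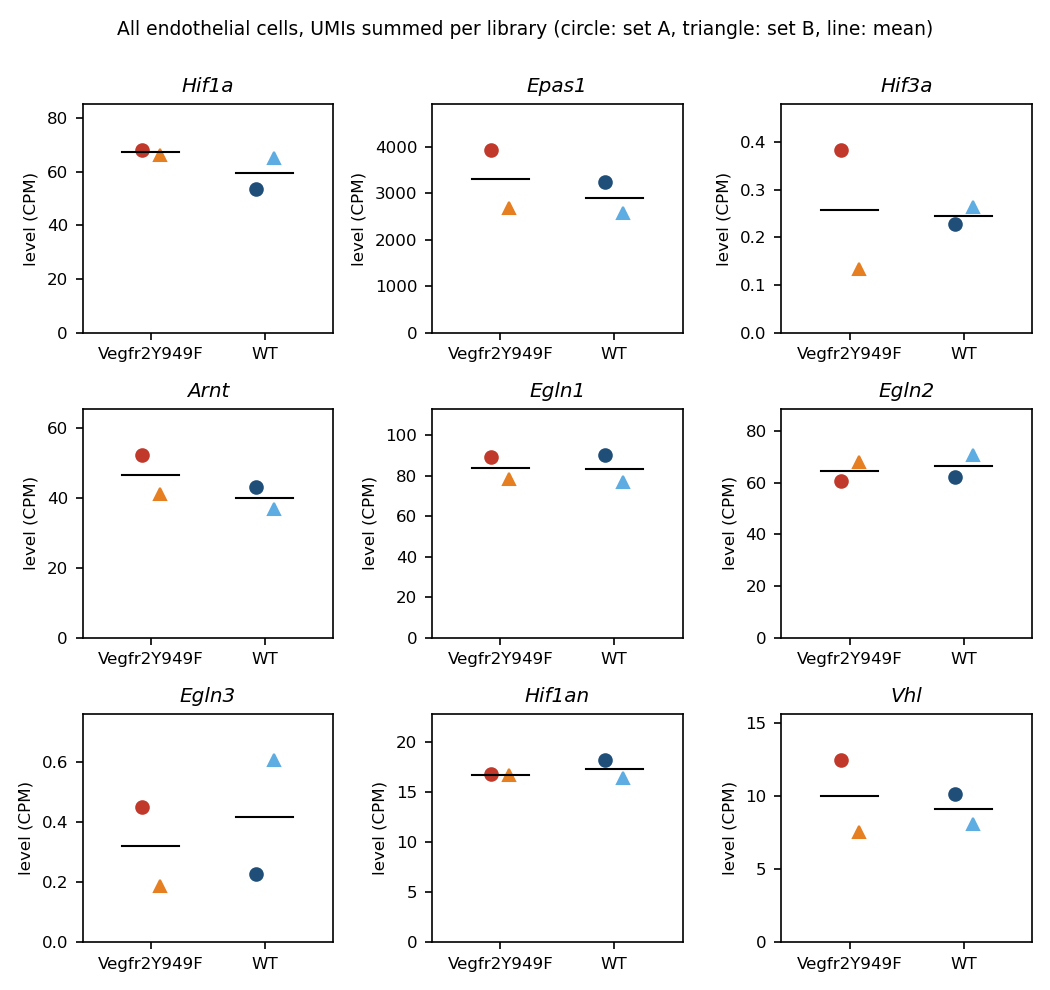
The 9 genes in all endothelial cells, in CPM from UMIs summed per library, with Vegfr2Y949F left and WT right; circles are set A, triangles set B and lines the mean of each genotype. Epas1 is higher in set A than in set B in both genotypes, and in CPM the genotypes' libraries overlap for every gene except Hif1a.

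In the 16 cell types with at least 20 cells in every library, 107 tests of a member could be run and none was called. The background there was 0% of genes called in 12 types, and 0.00861% in adventitial fibroblasts, 0.0172% in alveolar fibroblasts, 0.0331% in arterial cells and 0.0295% in club cells. The genotypes' libraries did not overlap in 31 of the 107 tests, 13 with Vegfr2Y949F higher and 18 with WT higher, a share of 29.0% beside 26.6% of all gene and type pairs (13.7% with Vegfr2Y949F higher and 13% with WT higher), which ran from 22.2% to 31.6% over the types. Egln2 was non-overlapping and lower in Vegfr2Y949F cells in 7 types and higher in none. Hif1a was non-overlapping and higher in 6 types and lower in 1. The types come from the same 4 libraries and are not independent. General capillary cells also mixed unlike clusters. A cluster high in Plvap and Lyve1 held 611 and 620 cells in Vegfr2Y949F A and B, against 74 and 79 in WT A and B. Its Epas1 was 4656 CPM (libraries pooled), against 2968 to 3237 CPM in the other large clusters and 4878 CPM in a shallow cluster of 328 cells. The part of this cluster in the general capillary and endothelial sums was not tested.

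An unadjusted p under 0.05 was reached by 2 of the 107 tests. Epas1 in myofibroblasts had 597 and 381 CPM in Vegfr2Y949F A and B, against 118 and 264 CPM in WT A and B (log2 1.28 ± 0.38, edgeR adjusted p = 0.997). The endothelial markers stood at a median of 7.15% of their endothelial level in myofibroblasts. In the myofibroblasts without an endothelial marker UMI it was 148 and 76.0 CPM in Vegfr2Y949F A and B, against 113 and 76.7 CPM in WT A and B, and the genotypes overlapped. Egln3 in neutrophils had 8.58 and 8.42 CPM in Vegfr2Y949F A and B, against 2.56 and 4.62 CPM in WT A and B, from 75 UMIs of which 52 were in Vegfr2Y949F A (log2 1.18 ± 0.49, edgeR adjusted p = 0.999).

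The wider pathway was described in all endothelial cells through 5 lists, in each of which no gene was called between the genotypes. Of 43 HIF target genes tested, 13 were higher and 30 lower in Vegfr2Y949F, with a median log2 fold change of -0.07 beside -0.01 over all genes. The smallest p-values were those of Cxcr4, a chemokine receptor of tip cells, with 5.83 and 9.30 CPM in Vegfr2Y949F A and B, against 2.59 and 3.09 CPM in WT A and B (log2 1.36 ± 0.31, edgeR adjusted p = 1.00), and of Angpt2, a vessel-destabilising ligand of Tie2, with 4.97 and 6.42 CPM in Vegfr2Y949F A and B, against 2.80 and 2.56 CPM in WT A and B (log2 1.03 ± 0.25). The genotypes did not overlap for either gene, as for 22.2% of all genes in these cells. Cxcr4 was called with the set letter as a replicate block (log2 1.32, edgeR adjusted p = 0.0104), without the filter on low counts (edgeR adjusted p = 7.98e-05) and without WT B (log2 1.52, edgeR adjusted p = 0.0387). Angpt2 was called without the filter (edgeR adjusted p = 0.0470). The glycolytic enzyme Tpi1 had a log2 fold change of -0.34 ± 0.15.

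Of 18 other oxygen-dependent dioxygenases, 10 were higher and 8 lower (median 0.02). The collagen prolyl hydroxylase P4ha2 had 40.5 and 47.6 CPM in Vegfr2Y949F A and B, against 66.7 and 54.7 CPM in WT A and B (log2 -0.51 ± 0.18), the related P4ha1 had -0.62 ± 0.37 (-1.12 and called without WT B, edgeR adjusted p = 0.0138), and the DNA demethylase Tet1 had 9.35 and 6.93 CPM in Vegfr2Y949F A and B, against 5.37 and 5.49 CPM in WT A and B (log2 0.52 ± 0.20). Among 5 partners of the VHL ligase, 1 was higher and 4 lower (median -0.05), and Ube2m (-0.10), Rbx1 (-0.07) and Eloc (-0.05) had the smallest p-values. Of 11 HIF cofactors and other regulators, 5 were higher and 6 lower (median -0.01), led by Rack1 (-0.25), Ep300 (0.12) and Cited2 (-0.18). Of the other ARNT partners, the xenobiotic receptor Ahr had a log2 fold change of 0.23 ± 0.16.

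Between lineages the same lists divided unevenly. In myeloid cells 25 of 44 HIF target genes tested were called higher and 14 lower (median log2 0.47, beside -0.13 over all genes, where 32.8% were called higher and 35.7% lower). In lymphoid cells 8 were called higher and 20 lower (median -0.30 beside -0.17), where the background was 28.5% higher and 34.4% lower. Mesenchymal cells had 15 higher and 21 lower (34% and 35% of all genes). Endothelial cells had 17 higher and 19 lower (median -0.01; 35.3% and 31.7% of all genes), and epithelial cells 12 higher and 15 lower (32.3% and 35.5% of all genes). Of the 18 other dioxygenases, 9 were called higher and 2 lower in endothelium (median 0.28 beside -0.01 over all genes). In epithelial cells 5 were called higher and 9 lower (median -0.34 beside -0.10). Mesenchymal cells had 6 higher and 7 lower, myeloid cells 6 and 8, and lymphoid cells 5 and 6.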

How the data were processed

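Single-cell RNA libraries of 4 lung suspensions were deposited as raw UMI counts per gene and barcode, written by Cell Ranger 6.1.1 per the file headers; fastp, UMI-tools, Seurat 4.1.0 and build mm10 are named in the submitters' processing notes, without roles. Cells with at least 500 genes, 1000 UMIs and at most 15% mitochondrial UMIs were kept. Automatic doublet thresholds marked 387, 0, 0 and 64 cells in Vegfr2Y949F A and B and WT A and B, so the 8% of cells with the highest doublet scores in each library were removed, which left 41248 of 53287 barcodes and 68407724 to 80190041 UMIs per library.

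Clustering (scanpy 1.11.5, Leiden resolution 1, 2000 variable genes, 40 principal components, no integration) gave 34 clusters, and 66 after 7 were split; 41 were named from marker lists with at least 3 markers detected. UMIs were summed per library and type. Genotype (2 libraries each) and lineage (library as a block) were tested on the counts with edgeR 4.0.16's quasi-likelihood test, TMM scaling and Benjamini-Hochberg adjustment over all genes tested, and 0.05 as the threshold. Differences of Hif1a against Epas1 were tested by exact sign-flip permutation. Each library pools 2 mice, and p-values measure the spread between these libraries. Wilson intervals and the floor of 3 counts cover counting error only. The tests were tested on simulated data.

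Alternatives were DESeq2 1.42.0, RLE factors, no filter on low counts, stricter cells (2000 UMIs, under 10% mitochondrial), no doublet removal, the set letter as a block and each library left out; the split by endothelial marker UMIs was chosen after seeing the data. All 9 members are named, with the 3 genes most like each member that reached 20 CPM in some type and the 3 genes of smallest p in each pathway list, of which 1 gene is not reported here. The members and lists were chosen with earlier results of these data known. Promoters came from RefSeq (GRCm38.p6), where 8 of the 9 genes matched.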

Additional observations from a re-analysis of the deposited data

Results flagged for a closer look

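The genotype difference ran in opposite directions between cell types for 5 genes, with both Vegfr2Y949F libraries above both WT libraries in some types and below them in others. These differences between types were not tested, the types come from the same 4 libraries, and 26.6% of all gene and type pairs had libraries that did not overlap.

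Hif1a was higher in Vegfr2Y949F T cells (log2 0.39), aerocytes (0.22), arterial cells (0.43), club cells (0.31), interstitial macrophages (0.57) and myofibroblasts (0.29), and lower in alveolar macrophages (-0.41). Arnt was higher in aerocytes (0.27) and alveolar fibroblasts (0.18) and lower in alveolar macrophages (-0.49) and myofibroblasts (-0.85). Egln3 was higher in neutrophils (1.18) and lower in myofibroblasts (-0.55). Hif1an was higher in club cells (0.21) and lower in T cells (-0.17), adventitial fibroblasts (-0.54) and general capillary cells (-0.11). Vhl was higher in alveolar type 1 cells (0.41) and pericytes (0.68) and lower in adventitial fibroblasts (-0.24). None of these passed the edgeR test.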

How the results depend on the processing

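Of 337 alternatives for the 31 called lineage tests, 329 kept direction and call and none reversed; the 8 lost calls were those of Hif1an in endothelium without the filter on low counts and without Vegfr2Y949F B, Egln3 in mesenchyme without Vegfr2Y949F B (edgeR adjusted p = 0.0659), Epas1 in myeloid cells without doublet removal (log2 -0.34, edgeR adjusted p = 0.140) and Hif3a in myeloid cells under 4 settings. The Hif1a to Epas1 difference from endothelium kept its direction throughout. Without doublet removal it was 2.23 in epithelial, 2.83 in mesenchymal and 4.42 in myeloid cells. With equal weight per type it was 2.33 in mesenchymal, 5.25 in myeloid and 3.09 in lymphoid cells. In cells without an endothelial marker UMI, chosen after seeing the data, it was 4.58 in epithelial, 7.92 in myeloid and 6.53 in lymphoid cells; the cause of these moves was not tested.

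No gene was called between genotypes in all endothelial cells with edgeR, against 7 with DESeq2, 39 with no filter on low counts and 0 to 34 on leaving out a library (1 without Vegfr2Y949F A, 16 without WT A, 34 without WT B). In all kept cells DESeq2 called 5 and leaving out a library 0 to 59 (20 without WT A, 59 without WT B). Over cell types, the only member called on leaving out a library was Epas1 in T cells without Vegfr2Y949F A (log2 -2.14). That fit rests on 1 Vegfr2Y949F library, and many other genes were called in it too. In T cells without an endothelial marker UMI, Epas1 was 115 and 59.4 CPM in Vegfr2Y949F A and B, against 141 and 50.4 CPM in WT A and B. With a marker UMI it was 253 and 63.7 CPM in Vegfr2Y949F A and B, against 717 and 191 CPM in WT A and B. Cxcr4 was called without the filter (edgeR adjusted p = 7.98e-05), under the set letter block (0.0104) and without WT B (0.0387), Angpt2 without the filter (0.0470), and P4ha1 without WT B (log2 -1.12, 0.0138).

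With the set letter as a replicate block, 20 genes were called in endothelium and no member. The labels do not say that the letters pair the libraries; A minus B of the genotypes correlated across genes at 0.724 in endothelium.

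Small endothelial genotype differences changed sign. Hif3a was -0.00204 with DESeq2, -0.0105 with the set letter block and -0.168 without doublet removal. On leaving out a library, log2 values ranged from -0.0322 to 0.287 for Hif1a, from -0.104 to 0.314 for Epas1, from -0.859 to 0.518 for Hif3a, from -0.149 to 0.0475 for Egln1, from -0.26 to 0.0408 for Egln2, from -1.13 to 0.447 for Egln3, from -0.26 to 0.332 for Vhl, from -0.335 to 0.185 for Eloc, from -0.187 to 0.0361 for Rbx1, from -0.416 to 0.156 for Ube2m, from -0.0114 to 0.245 for Ep300, from -0.622 to 0.164 for Cited2 and from -1.12 to 0.134 for P4ha1. Hif1an in club cells ranged from -0.0157 to 0.16.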
